A study of Mus musculus with 21 samples.

Results

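The comparison is of spiral ganglion neurons (SGNs) of the mouse cochlea at P1, the first day after birth, with hair cells (HCs) of the inner ear at P12. It rests on 3 libraries of each. Genes entered it when their CPM, the count scaled to a common library total, was over 1 in all 3 libraries of either group, which held for 16368 of the 17531 genes fitted over the whole series and of the 52550 genes in the table of counts. *Ston1* entered nearest the limit, with a lowest CPM of 1.004 in SGNs and 0.5844 in HCs, and *Epha2* stayed nearest outside it, with 0.9982 and 0.3506. The SGNs were picked by hand from cochleae that carried ShhCre/+ and a red reporter that Cre turns on, Rosa26-CAG-loxp-stop-loxp-tdTomato/+ (the Ai9 allele). The *Shh* locus drives the Cre, and a library held 195, 140 or 150 cells. The HCs carried the reporter with Atoh1-CreER+ and tamoxifen was given at P0 and P1, and each library held about 1200 cells pooled from cochlear and vestibular organs. Labels give the strain as C57BL/6 throughout. They call the HCs manually sorted, and the study's methods name fluorescence-activated sorting. The labels do not say whether the 3 libraries of a group came from separate animals, so p-values measure only the spread between these libraries. Age, cell type, Cre line, tamoxifen, organ, way of collection and number of cells all changed together between the groups, so their parts in a difference cannot be told apart. Cochlear glia at P8, from vGlut3-iCreER/+ mice with the same reporter and tamoxifen at P2 and P3, served as a reference.

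SGNs are the bipolar neurons that carry sound information from the cochlea to the brainstem. At birth their axons already reach HCs and brainstem, and synapses are still being formed and pruned. HCs turn movement of the actin-filled stereocilia of their hair bundle into a receptor potential and release glutamate from ribbon synapses onto SGN endings. Both arise from the otic placode, and both handle glutamate vesicles and fast calcium signals, so they share part of their molecular equipment.

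Total counts on genes were between 21915914 and 33361246 in the P1 SGN libraries and between 12205135 and 17925719 in the P12 HC libraries. Genes with a TPM (length-scaled share of the library) over 1 numbered between 15316 and 17470 in SGNs and between 19046 and 19874 in HCs. Mitochondrial genes took 16.4% to 19.5% of the counts in SGNs and 9.54% to 10.6% in HCs. Pearson's r of log2 expression across genes was 0.931 to 0.957 within SGNs, 0.957 to 0.963 within HCs and 0.540 to 0.580 between them. Levels below are RPKM, reads per kilobase scaled to the library, after TMM normalization, in the order of replicates 1, 2 and 3, so that genes of different length can be compared. A gene was called higher in a group when limma's fit over all 21 libraries gave over 4-fold and an adjusted p under 0.01. Log2 fold changes are SGN minus HC and stand with their standard error, and positions are those of GENCODE M21 on mm10. The amplification kit does not mark strand, so reads of a gene and of one overlapping it on the other strand cannot be told apart, which touches 29.4% of the genes measured and, of those named below, *Anxa4*, *Atp6v1g2*, *Bdnf*, *Cacna1a*, *Cacna1d*, *Cacnb2*, *Casz1*, *Cfap298*, *Cfap97*, *Chrna10*, *Cib2*, *Ckmt1*, *Dnaaf5*, *Dnah9*, *Dner*, *Ebf3*, *Gata3*, *Gfi1*, *Hydin*, *Ikzf2*, *Kcnh7*, *Kcnn2*, *Miat*, *Nefl*, *Neurod1*, *Pclo*, *Plxna1*, *Prox1*, *Ptbp1*, *Rfx1*, *Rfx7*, *Rimbp2*, *Rora*, *Runx1*, *Scn9a*, *Shank1*, *Shank3*, *Shox2*, *Srrm4*, *Strbp*, *Strc*, *Syn1*, *Syn3*, *Syp*, *Tmem255b*, *Uchl1*, *Xirp2* and *Zmynd10*.

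Marker genes stood on the labelled side. *Slc17a7*, a vesicular glutamate transporter of neurons, had levels of 19.7, 36.0 and 22.6 in SGNs and 0.197, 0.143 and 0.119 in HCs, and *Gfi1*, a zinc-finger factor that HCs need, had 1.38, 2.71 and 1.20 and 66.5, 62.7 and 61.9. All 4 SGN markers and all 5 HC markers of the list were called on their own side. The 11 glial markers listed had a summed level of 86.3 to 164.0 in SGNs and 51.4 to 133.5 in HCs, against 7398 to 10078 in the glial libraries. Of the 9 measured, 1 was called higher in HCs (11.1%, against 12.1% of all genes). It was the glial gene of the study's qPCR check, and its call was lost under 7 alternatives. Of 2 macrophage markers measured, 1 was called higher in HCs (50%, against 12.1%), a call lost with edgeR's test. Some libraries carried genes of other cells. Among the SGN libraries replicate 2 was the highest for 18 of the 29 hair bundle genes called higher in HCs, replicate 1 for 4 and replicate 3 for 7, and *Otof* was at 3.96, 31.9 and 2.86. Of 6 vestibular HC genes so called, by contrast, 4 were highest in replicate 1. Replicate 1 held *Lum* of connective tissue at 21.3, 1.26 and 1.02 and *Mki67* of dividing cells at 9.83, 0.275 and 0.472. In the HC libraries 8 of 15 supporting cell markers measured were called higher (53.3%, against 12.1% of all genes). There were 4 with edgeR's test and 5 without SGN replicate 3. All 16 markers listed had a summed level of 328 to 344 in HCs against 55.2 to 96.7 in SGNs. *Otog*, a gene of the tectorial and otolithic membranes that supporting cells make, led them at 150.2, 154 and 159. The part of these transcripts in the results was not tested. In bulk RNA, fewer cells of a type and less RNA per cell cannot be told apart.

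Of the 16368 genes, 1768 (10.8%) were higher in P1 SGNs, 1984 (12.1%) were higher in P12 HCs and 1586 (9.69%) were shared. Shared means a CPM over 10 in all 6 libraries and a 95% interval of the fold change that lay wholly within 2-fold either way. The remaining 11030 genes (67.4%) could be placed in neither class. Among the 6617 genes with a CPM over 10 in all 6 libraries, 421 were higher in SGNs, 236 were higher in HCs and 24.0% were shared. Only these 6617 genes could be shared, so 24.0% is the nearer share to set beside lists of abundant genes. Genes at high level in one cell and near absence in the other were counted as exclusive when the mean TPM was over 30 in one group and under 5 in the other. There were 200 exclusive genes of SGNs and 565 of HCs. With CPM in place of TPM they were 322 and 411, so the size of this imbalance depended on the measure. Protein-coding genes made up 98.8% of the shared genes, 85.2% of those higher in SGNs and 68.3% of those higher in HCs, against 80.8% of all genes measured. The share among the 6617 genes, from which all shared genes came, was not taken. How the libraries were scaled moved the split. SGNs held 47.1% of the calls under TMM, 40.6% under median-of-ratios scaling and 35.7% under plain library size, which shifted the median gene by -0.22 and -0.40 on the log2 scale. With the edgeR quasi-likelihood test in place of limma the larger share turned to SGNs, at 59.4%, with 1539 genes higher in SGNs and 1050 higher in HCs. Of the 1586 shared genes, 788 stayed shared under all 3 scalings. Which of the shared genes named below were among them is not given. Without SGN replicate 2, the fit called 1582 genes higher in SGNs and 1698 higher in HCs and found 1258 shared.

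**Figure D1:**
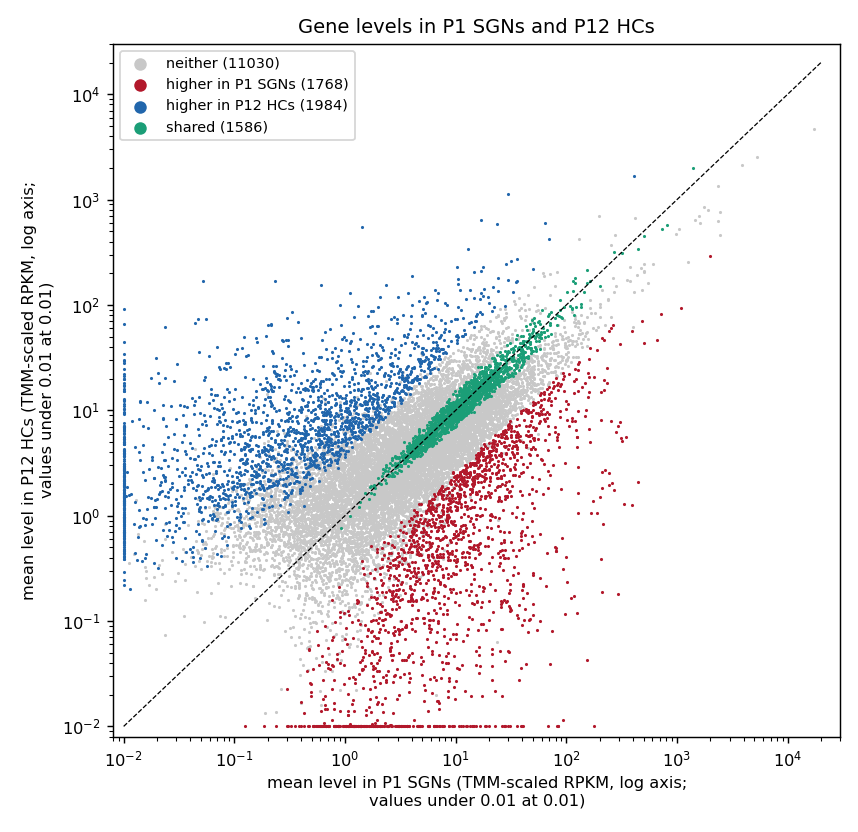
Mean level of each of the 16368 genes in P1 SGNs (x) and P12 HCs (y), in TMM-scaled RPKM on log axes, with means of 3 libraries and values under 0.01 drawn at 0.01. The 1586 shared genes lie along the dashed line of equal level, the 1768 genes higher in SGNs lie below it and the 1984 higher in HCs above it.

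Nearly all genes of the hair bundle were higher in HCs. Of 33 genes of mechanotransduction and the hair bundle, 29 were higher in HCs (87.9%, against 12.1% of all genes), none was higher in SGNs and *Rdx* was shared. Their median log2 fold change was -4.04, against 0.00 over all genes measured, and their summed level was 1978 to 2095 in HCs, 186 to 261 in SGNs and 94.4 to 195.3 in glia. *Ptprq* (ENSMUSG00000035916.8, chr10:107517049-107720051, minus strand), a phosphatase of the shaft connectors at the base of stereocilia, was the most abundant at 639.6, 656 and 619 in HCs and 10.5, 18.8 and 21.2 in SGNs (log2 fold change -5.36 ± 0.24, adjusted p 4.8e-12). No SGN library came near an HC library. *Tmc1*, which encodes a pore protein of the transduction channel, stood at 53.4, 66.1 and 58.7 in HCs and at 2.61, 5.22 and 3.79 in SGNs, a 16.5-fold difference (adjusted p 8.9e-07). *Tmc2*, its early partner, differed 39.5-fold, with 30.7, 32.6 and 34.5 in HCs and 1.44, 0.578 and 0.593 in SGNs. The tip link cadherins *Cdh23* and *Pcdh15* were 8.16-fold and 22.0-fold higher in HCs. *Myo3b*, a stereocilia myosin, showed the widest gap of the list at 170.2-fold, and the actin-binding *Xirp2* differed 97.9-fold.

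Of the bundle list, 4 genes were not called higher in HCs, among them *Rdx*, *Clrn1* and *Cib2*. *Rdx* (radixin), which ties actin to the membrane, had levels of 24.0, 26.7 and 26.0 in SGNs and 29.8, 35.3 and 27.5 in HCs with a 95% interval of -0.75 to 0.21, and it was at 42.8 ± 17.0 (SD, n = 3) in glia. *Clrn1*, the Usher syndrome tetraspanin, had 28.6, 30.0 and 28.7 in SGNs and 39.0, 40.6 and 45.7 in HCs, with the groups apart and an adjusted p of 0.071. *Cib2*, a calcium-binding partner of the TMC channels, differed 2.60-fold and stayed under the 4-fold limit, and its transcript overlaps *Sh2d7* on the other strand. *Cib3*, the related gene used by vestibular HCs, was among the widest gaps of all genes at 174, 174 and 162 in HCs and 0.0284, 0 and 0.126 in SGNs (log2 fold change -12.20 ± 1.26).

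The HC synapse list was mixed, with 9 of 20 genes higher in HCs (45.0%, against 12.1% of all genes), 3 higher in SGNs (15%, against 10.8%) and 3 shared (15%, against 9.69%). *Otof* (chr5:30367062-30461932, minus strand) encodes otoferlin, the calcium sensor for vesicle fusion in HCs, and had 321, 333 and 364 in HCs. In SGNs it had 3.96, 31.9 and 2.86, so that replicate 2 stood well above the other two and still far under each HC library (log2 fold change -5.62 ± 0.52, adjusted p 3.8e-08). *Slc17a8*, the vesicular glutamate transporter of HCs, gave the same picture with 111, 103 and 100.2 in HCs and 0.642, 14.7 and 0.827 in SGNs. *Ctbp2*, whose locus also makes the ribbon protein RIBEYE, was 5.59-fold higher in HCs. The calcium sensor gene *Cabp2* had 183, 196 and 185 and 1.78, 8.58 and 1.82, a 63.8-fold difference. The efferent receptor subunits *Chrna9* and *Chrna10* were 17.3-fold and 14.5-fold higher in HCs. The scaffolds of the active zone lay on the other side. *Bsn* (bassoon) had 21.9, 19.3 and 16.9 in SGNs and 3.55, 3.74 and 3.68 in HCs, and *Pclo* (piccolo) had 31.2, 30.9 and 29.8 and 7.32, 6.22 and 7.22. The call of *Pclo* was lost with DESeq2 and under library-size and median-of-ratios scaling. Without the 4-fold limit, *Cacna1d*, the L-type pore that carries the HC calcium current, was 1.67-fold higher in HCs (adjusted p 0.00093), with 19.2, 17.7 and 23.4 in SGNs and 31.0, 33.6 and 34.4 in HCs.

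Genes of outer HCs and of vestibular HCs were both in the HC libraries. *Slc26a5* (prestin, the outer HC motor protein) had 131, 155 and 155 in HCs and 20.7, 24.0 and 20.99 in SGNs, and the transcription factor *Ikzf2* had 8.57, 7.94 and 8.25 and 1.61, 1.55 and 3.499. Of 10 outer HC genes, 5 were higher in HCs (50%, against 12.1% of all genes), none in SGNs and 1 was shared (10%, against 9.69%). With edgeR's quasi-likelihood test 2 of them were called, and the calls of *Slc26a5* (adjusted p 0.068) and *Ikzf2* (adjusted p 0.015) were lost. That of *Ikzf2* was also lost without SGN replicate 1, SGN replicate 2 or HC replicate 1. Of 10 vestibular HC genes, 6 were higher in HCs (60%, against 12.1% of all genes) and 1 was higher in SGNs (10%, against 10.8%). *Bmp2* was at 25.6, 16.5 and 19.1 in HCs and 0.0482, 0.0222 and 0 in SGNs. *Anxa4*, a calcium-dependent membrane binder, had 19.97, 18.6 and 19.9 and 0.726, 0.136 and 0.0183. Outer HC transcripts were also read in SGN and glial libraries. *Ocm* (oncomodulin), the calcium buffer of outer HCs, had 214, 219 and 158 in SGNs, 637, 710.3 and 742 in HCs and 89.6 ± 122 (SD, n = 3) in glia. Its log2 fold change of -1.83 ± 0.57 had an adjusted p of 0.014 and was not called, although the groups did not overlap.

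Of 14 HC transcription factors, 10 were higher in HCs (71.4%, against 12.1% of all genes), none in SGNs and *Rfx7* was shared, with a median log2 fold change of -2.88. *Pou4f3*, which keeps HCs alive, had 132, 149 and 139 in HCs and 7.63, 18.4 and 7.01 in SGNs (adjusted p 1e-06), with SGN replicate 2 again the highest SGN library. *Atoh1*, the factor that starts HC fate and whose enhancer drives the Cre of the HC line, was at a low 8.69, 5.09 and 4.05 at P12 and at 0.108, 0 and 0.200 in SGNs. The winged-helix factors of the RFX family split by member. *Rfx2* had 7.21, 9.21 and 9.35 in HCs and 0.145, 0.0472 and 0.0253 in SGNs, a 135-fold difference, and *Rfx3* had 24.0, 22.6 and 22.8 and 3.64, 2.51 and 3.65, a 7.10-fold difference. *Rfx1* did not pass the test (adjusted p 0.12), and *Rfx7* had 9.12, 8.88 and 8.005 in SGNs and 8.98, 9.89 and 9.29 in HCs. *Rorb* and *Rora*, retinoid-related receptors, were 7.67-fold and 4.87-fold higher in HCs. *Nhlh1*, on the list of SGN factors from its early neuronal role, was higher in HCs at 23.3, 26.8 and 20.9 against 0.928, 0.514 and 1.41. Its relative *Nhlh2* had counts of 276, 161 and 347 in SGNs and 0, 0 and 0 in HCs.

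Most genes in a group of the motile axoneme were higher in HCs. The axoneme is the microtubule core of a cilium. Dynein arms, radial spokes and tektins make it beat in motile cilia, and vestibular HCs keep a kinocilium with such a core. This group was drawn up by gene symbol after the values had been seen. Its counts and median are thus a description and are not ranked against the other lists. A gene could also be measured through its CPM in HCs alone, as 3147 of the 16368 genes were. Of 83 genes measured, 73 were higher in HCs (88.0%, against 12.1% of all genes), none in SGNs and *Cfap97* was shared. The median log2 fold change was -5.74. The summed level of all 87 genes of the group, measured or not, was 1848 to 1905 in HCs, 113 to 139 in SGNs and 110.4 to 187.2 in glia. *Dnah5* (ENSMUSG00000022262.7, chr15:28203752-28472052, plus strand), an outer arm dynein heavy chain, had 24.0, 25.9 and 24.2 in HCs and 0.00366, 0.0253 and 0 in SGNs, with counts in SGNs of 2, 10 and 0. *Dnah9*, also of the outer arm, had 24.5, 24.7 and 26.2 and 0.00896, 0.191 and 0.0425. *Hydin* of the central pair was at 38.9, 36.0 and 40.9 and 0.734, 0.629 and 0.649, *Rsph4a* of the radial spokes at 25.6, 21.9 and 24.0 and 0.431, 0.488 and 0.593, and *Tekt1*, a tektin, at 70.6, 68.0 and 68.2 and 0.176, 0.585 and 0.366. In each of these genes every HC library exceeded every SGN library by more than 10-fold. *Foxj1*, the regulator of motile cilia, likewise chosen after its values were seen, had 49.0, 53.9 and 47.9 in HCs and 3.62, 7.24 and 2.64 in SGNs (log2 fold change -3.62 ± 0.40). *Rsph9* ran the other way without a call, at 14.9, 17.8 and 12.5 in SGNs and 9.37, 11.8 and 12.2 in HCs. The genes *Dnah7a*, *Dnah7b* and *Dnah7c* are near-identical copies, and their separate values are uncertain.

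**Figure D2:**
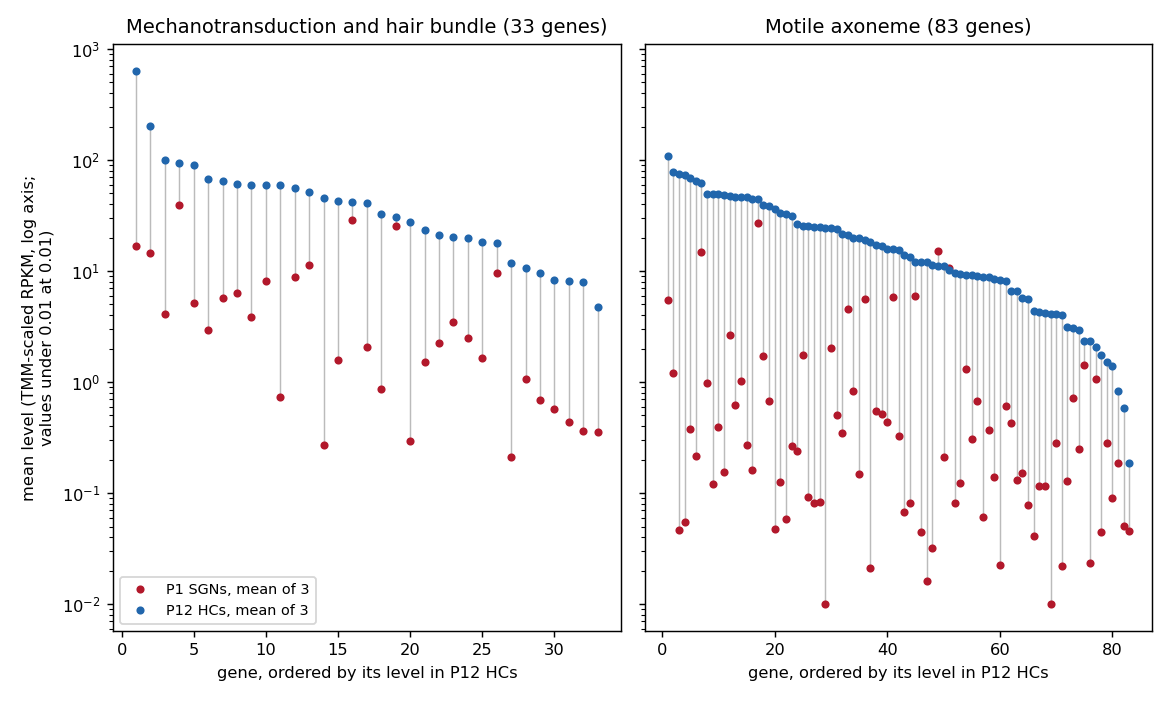
Mean levels of the 33 mechanotransduction and hair bundle genes (left) and the 83 axonemal genes (right) in P1 SGNs (red) and P12 HCs (blue), in TMM-scaled RPKM on a log axis, each the mean of 3 libraries and each gene joined by a line. Genes run by falling HC level. HC means lie above SGN means for 29 called genes on the left and 73 on the right, and the median log2 fold change is -4.04 on the left and -5.74 on the right, where the genes were chosen after their values were seen.

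RFX factors bind X-box motifs in promoters of ciliary genes. Promoters of 300 bases (250 before to 50 after the annotated start, RefSeq, GRCm38.p6) were therefore searched on both strands for GTNNCC followed by NN and GGNAAC, in which N is any base. The motif was chosen after the values were seen. It was found in 425 of 32851 promoters in the table (1.29%), in 2.09% of the genes measured, in 4.21% of the promoters of genes higher in HCs (52 of 1236), in 1.38% of those higher in SGNs and in 1.79% of those of shared genes. Among axonemal genes higher in HCs, 8 of 60 promoters held it (13.3%), and among all axonemal genes measured 8 of 69 (11.6%). The shorter GTTGCC fits within an arm of the longer motif and so overlaps some of its matches. It was in 12.5% of all promoters, 15.3% of those of genes measured and 20.9% of those of genes higher in HCs. Axonemal genes higher in HCs held it in 41.7% (25 of 60), and all axonemal genes measured held it in 42.0% (29 of 69). For comparison, the E-box CAGCTG was in 16.3% of all promoters and 18.4% of those of genes measured. It was in 24.0% of those of genes higher in SGNs, 20.3% of those higher in HCs and 15.8% of those of shared genes. TTCAGCACC and ATTNATNAT were also searched. Promoters of genes measured, higher in SGNs and higher in HCs held the first in 0.58%, 1.03% and 0.73% and the second in 1.86%, 2.41% and 2.59%. A match is a run of letters and not a measured binding site. The 8 axonemal windows that hold a match are shown so that the matched letters can be read beside the genes' values, each 30 bases of the gene's own strand with the match in capitals. In *Cfap206*, *Dnaaf5*, *Spag6l* and *Zmynd10* the motif reads on the opposite strand.
Ccdc151 (chr9:22002647-22002676, minus strand): cgcgggcgGTTTCCTTGGGAACgtgggcgg
Cfap206 (chr4:34730208-34730237, minus strand): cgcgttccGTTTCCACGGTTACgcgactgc
Cfap298 (chr16:90935016-90935045, minus strand): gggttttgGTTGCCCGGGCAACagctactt
Dnaaf5 (chr5:139150209-139150238, plus strand): tagcgccgGTTCCCTTGGAGACaggcaacg
Pifo (chr3:106001496-106001525, minus strand): gcggttccGTTCCCTTGGCAACgtagtaca
Spag6l (chr16:16829314-16829343, minus strand): tccggttgctgtcgGTTGCCCTGGAGACgc
Tekt4 (chr17:25471422-25471451, plus strand): ccccacctGTGTCCTGGGAAACaaactcat
Zmynd10 (chr9:107547296-107547325, plus strand): gctccctcGTTTCCATGGCGACgacgactc

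The calls of *Ccdc151* and *Cfap298* were lost without SGN replicate 3, and that of *Ccdc151* also without SGN replicate 1 and with edgeR's test. In *Pifo* the match starts 20 bases before the annotated start, and the gene had 89.6, 62.2 and 71.3 in HCs and 0, 0.140 and 0 in SGNs. *Cfap206* has its match 23 bases before the start and had 80.2, 73.3 and 78.4 and 0.713, 1.18 and 1.72. *Cfap298*, with a match 188 bases before the start, was at 68.7, 58.4 and 59.8 against 14.4, 21.4 and 8.58 (4.41-fold). In *Spag6l* the match begins 34 bases after the start, and levels were 45.5, 51.5 and 42.9 and 0.251, 0.720 and 0.902.

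Further genes with wide gaps on the HC side had various roles. *Cyp2g1*, a cytochrome P450 gene, had 36.5, 33.4 and 33.5 in HCs and no count in any SGN library, which makes it at least 669-fold higher in HCs against a floor of 3 counts. *Zbbx* had SGN counts of 0, 1 and 0 and was at least 771-fold higher. *Cxcl14*, a chemokine, had 67.6, 71.5 and 65.2 and 0, 0.0866 and 0.0464. Among the abundant exclusive genes of HCs were *Ccdc81* at 173, 173 and 165, *Tmem255b* at 157, 139 and 169, *S100a13* at 146, 108 and 132 and the epoxide hydrolase *Ephx1* at 97.6, 88.0 and 105, all under 4 in each SGN library. *S100a1*, a calcium-binding protein, was called higher in HCs at 1153, 1097 and 1151 against 18.6, 47.9 and 22.0.

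On the SGN side, 26 of 30 genes of the axonal cytoskeleton were higher in SGNs (86.7%, against 10.8% of all genes), none was higher in HCs and *Nrcam* was shared. The median log2 fold change was 5.76, and the summed level was 5243 to 6136 in SGNs against 311 to 334 in HCs. *Dcx* (ENSMUSG00000031285.14, chrX:143855842-143933311, minus strand), the doublecortin of migrating and growing neurons, had 90.5, 93.4 and 94.6 in SGNs and 0.0280, 0 and 0.00635 in HCs (log2 fold change 13.63 ± 1.38, adjusted p 1.3e-07). *Gap43*, a growth cone protein, had 339, 316 and 215 and 0.543, 0 and 0, with a single HC library above 0. *Stmn4*, a microtubule regulator, had no count in HCs and 81.1, 60.7 and 62.1 in SGNs, at least 916-fold higher. The neuronal tubulin *Tubb3* was at 189, 232 and 212 against 0.380, 0.183 and 0. Of the neurofilaments, *Nefl* had 649, 702 and 609.9 in SGNs and still 51.4, 42.2 and 45.5 in HCs, and *Nefh* had 110.3, 198 and 74.3 and 2.13, 0.536 and 0.523, and both lost the call when no filter on low counts was set. *Prph*, a neurofilament relative, was at 23.0, 24.9 and 22.8 against 0.190, 0 and 0, with an adjusted p of 0.013 that missed the threshold.

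SGNs at P14, nearer in age to the HCs, had lower means of some of these genes. No test was made between the ages. The mean level of *Dcx* was 1.82 ± 0.670 (SD, n = 3) in SGNs at P14, and that of *Gap43* was 4.23 ± 0.328. *Tmsb10* was at 215, 151 and 133 at P1 and 17.6 ± 3.09 at P14, against 0.648, 1.14 and 1.38 in P12 HCs. *Tubb3* was at 249 ± 36.5 and *Uchl1*, a neuronal ubiquitin hydrolase, at 212 ± 36.6 at P14, against 211 and 216 at P1.

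Of 19 SGN transcription factors measured, 15 were higher in SGNs (78.9%, against 10.8% of all genes), *Nhlh1* and *Sall3* were higher in HCs and *Ebf1* was shared. *Shox2* had 30.7, 46.2 and 39.8 in SGNs and 0.107, 0 and 0 in HCs, and the receptor gene *Esrrg* had 87.6, 106 and 81.7 and 0.533, 0.925 and 0.388. *Runx1* was 69.8-fold and *Isl1*, a LIM homeobox factor of sensory neurons, 4.81-fold higher in SGNs. *Isl1* was also well read in HCs, at 13.5, 11.9 and 11.8 against 60.1, 59.4 and 57.8. *Prox1* missed the 4-fold limit at 66.0, 78.6 and 51.2 in SGNs and 30.3, 27.3 and 26.7 in HCs. *Ebf1* was at 19.0, 18.8 and 17.6 in SGNs and 21.7, 19.3 and 18.1 in HCs, with a 95% interval of -0.50 to 0.36, whereas its relative *Ebf3* was 4.55-fold higher in SGNs. The calls of *Ebf3* and *Isl1* were lost under library-size scaling, and that of *Ebf3* also under median-of-ratios scaling, with DESeq2 and without SGN replicate 1.

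Most genes of otic development were in neither class, as were 67.4% of all genes measured. Of 17 measured, 4 were higher in HCs (23.5%, against 12.1% of all genes) and 1 was higher in SGNs (5.88%, against 10.8%). Shared were 2 (11.8%, against 9.69%), and the median log2 fold change was -0.43. *Eya1*, a transcriptional coactivator, had 37.0, 38.6 and 41.6 in SGNs and 51.7, 52.0 and 47.3 in HCs and was shared, as was the chromatin remodeller *Chd7*. *Gata3* was 2.49-fold higher in SGNs without a call. *Pax2* was the sharpest difference, at 10.7, 10.03 and 12 in HCs and 0.0211, 0.0585 and 0 in SGNs. *Sox2* had 31.0, 24.6 and 23.6 and 0.139, 0.250 and 0.289, and it is a gene of both supporting cells and vestibular HCs.

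The release machinery of neurons was higher in SGNs for 22 of 34 genes (64.7%, against 10.8% of all genes), with *Otof* and *Slc17a8* higher in HCs and *Syn3* and *Syt2* shared. *Rims1* (chr1:22286251-22805994, minus strand), an active zone scaffold, had 18.9, 25.4 and 23.1 in SGNs and a single HC library with counts, at least 1163-fold higher in SGNs. *Rims2*, its relative, had 23.4, 27.1 and 24.5 and 10.7, 12.4 and 12.8, a 2.06-fold difference. The vesicle fusion gene *Snap25* had 205, 299 and 197 in SGNs and 20.5, 16.8 and 16.6 in HCs and lost its call when no filter on low counts was set. *Cplx1*, a complexin that clamps fusion, had 199, 333 and 278 and 2.02, 2.25 and 0.990, and *Cplx2* had 27.2, 23.8 and 19.9 and 16.4, 16.8 and 12.8 without a call. The vesicle protein genes *Syp* and *Syn1* were 15.02-fold and 12.5-fold higher in SGNs. *Syt2*, the fast calcium sensor of neurons, was at 15.9, 28.6 and 22.4 in SGNs and 19.6, 17.4 and 19.0 in HCs, with a 95% interval of -0.54 to 0.92. At P14 its mean level in SGNs was 117 ± 19.4. *Syt1* was at 5.86, 8.41 and 12.7 and 2.12, 1.38 and 1.35 and was not called (adjusted p 0.013).

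Glutamate receptors and their scaffolds were higher in SGNs for 16 of 27 genes (59.3%, against 10.8% of all genes) and higher in HCs for *Cnih3* and *Shank2*, of which *Cnih3* lost its call with edgeR's test. The AMPA receptor genes *Gria2*, *Gria3* and *Gria4*, which receive the HC signal, were 136-fold, 75.2-fold and 173-fold higher in SGNs. *Gria3* had 26.5, 27.5 and 28.6 in SGNs and 0.348, 0.608 and 0.228 in HCs. The SHANK scaffolds divided. *Shank1* had 71.9, 66.8 and 45.2 in SGNs and 1.99, 1.34 and 1.51 in HCs, *Shank3* had 4.23, 3.38 and 3.97 and 0.120, 0.0771 and 0.266, and *Shank2* had 1.84, 2.08 and 1.34 and 31.1, 33.3 and 36.4 (log2 fold change -4.27 ± 0.36, adjusted p 1.4e-08). Each SHANK gene thus had groups that did not overlap, in opposite directions.

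Of 9 genes of neurotrophins and their receptors, 6 were measured. The receptor genes *Ngfr*, *Ntrk2* and *Ntrk3* were the 3 higher in SGNs (50%, against 10.8% of all genes). The factor genes *Bdnf* and *Ntf3* were the 2 higher in HCs (33.3%, against 12.1%), and the call of *Ntf3* was not stable. *Bdnf* had 33.2, 32.1 and 27.8 in HCs and 0.253, 1.24 and 0.819 in SGNs (log2 fold change -5.69 ± 0.51). *Ntrk2*, which encodes its receptor TrkB, had 32.4, 27.2 and 26.7 in SGNs and 4.09, 4.44 and 5.23 in HCs. *Ntrk3*, for the NT-3 receptor TrkC, had 32.8, 36.8 and 39.0 and 1.52, 1.03 and 1.07, and *Ngfr*, for the shared receptor p75, had 127, 119.5 and 87.5 and 0.274, 0.124 and 0.0932. *Ntf3*, for NT-3 itself, was low at 1.17, 2.77 and 0.984 in HCs and 0, 0.831 and 0.0495 in SGNs, and its call was lost under 10 alternatives. Of 32 axon guidance genes measured, 15 were higher in SGNs (46.9%, against 10.8% of all genes) and none in HCs. *Dcc*, a netrin receptor, had 7.97, 6.67 and 7.71 in SGNs and 0, 0.0690 and 0.0547 in HCs. *Efnb2* was 7.39-fold and *Plxna1* 9.43-fold higher in SGNs. *Sema3e* had 46.6, 46.4 and 42.3 and 10.4, 9.17 and 10.7, and its call was lost with DESeq2 and under library-size and median-of-ratios scaling.

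Of 12 voltage-gated sodium channel genes, 9 were higher in SGNs (75.0%, against 10.8% of all genes) and none in HCs. *Scn9a* had 20.4, 17.8 and 22.0 in SGNs and a single HC library with counts, at least 1805-fold higher, and *Scn3a* was at least 1179.8-fold higher. *Scn8a*, the pore of mature nodes, differed 2.86-fold at 7.41, 11.4 and 11.5 and 3.20, 3.46 and 3.44 and was not called. *Scn3b* had 38.1, 37.6 and 32.9 and 21.1, 18.03 and 17.4 without a call. Of 30 potassium and HCN channel genes, 13 were higher in SGNs (43.3%, against 10.8%) and 4 in HCs (13.3%, against 12.1%). *Kcna10* was the most abundant of these 4, with 166, 185 and 183 in HCs and 9.19, 18.3 and 4.03 in SGNs, and *Kcnh7* was 4.88-fold higher in HCs. *Kcnq3*, a subunit of neuronal M channels, had 32.0, 47.1 and 36.7 in SGNs and 3.09, 3.69 and 4.07 in HCs, a 10.3-fold difference.

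Of 15 calcium channel genes, 9 were higher in SGNs (60%, against 10.8% of all genes). In HCs 1 was higher (6.67%, against 12.1%), and 2 were shared (13.3%, against 9.69%). The neuronal pores *Cacna1a* and *Cacna1b* had 15.6, 13.8 and 17.2 and 20.3, 17.6 and 23.0 in SGNs against 0.440, 0.555 and 0.601 and 1.03, 1.28 and 0.424 in HCs. The auxiliary subunits divided by gene. *Cacna2d3* was 9.66-fold higher in SGNs, *Cacna2d4* 36.4-fold higher in HCs, and *Cacna2d1* was shared at 5.99, 6.65 and 7.81 and 6.67, 7.39 and 6.22. *Cacnb2*, the beta subunit of HC channels, was shared at 6.90, 11.1 and 12.2 in SGNs and 8.12, 8.56 and 8.11 in HCs. Of 24 calcium buffers, sensors and pumps, 5 were higher in SGNs (20.8%, against 10.8% of all genes, and 3 under library-size scaling). The 3 higher in HCs (12.5%, against 12.1%) and 3 shared (12.5%, against 9.69%) were near the shares over all genes. *Pvalb* (parvalbumin) was higher in SGNs at 197, 242 and 225 against 49.7, 39.0 and 50.5, the reverse order of its relative *Ocm*, and lost its call under library-size scaling. None of the 4 plasma membrane pumps *Atp2b1* to *Atp2b4* was called. *Atp2b2*, the pump of the hair bundle, was 2.09-fold higher in HCs at 72.5, 82.7 and 78.6 against 33.0, 43.4 and 38.0.

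**Figure D3:**
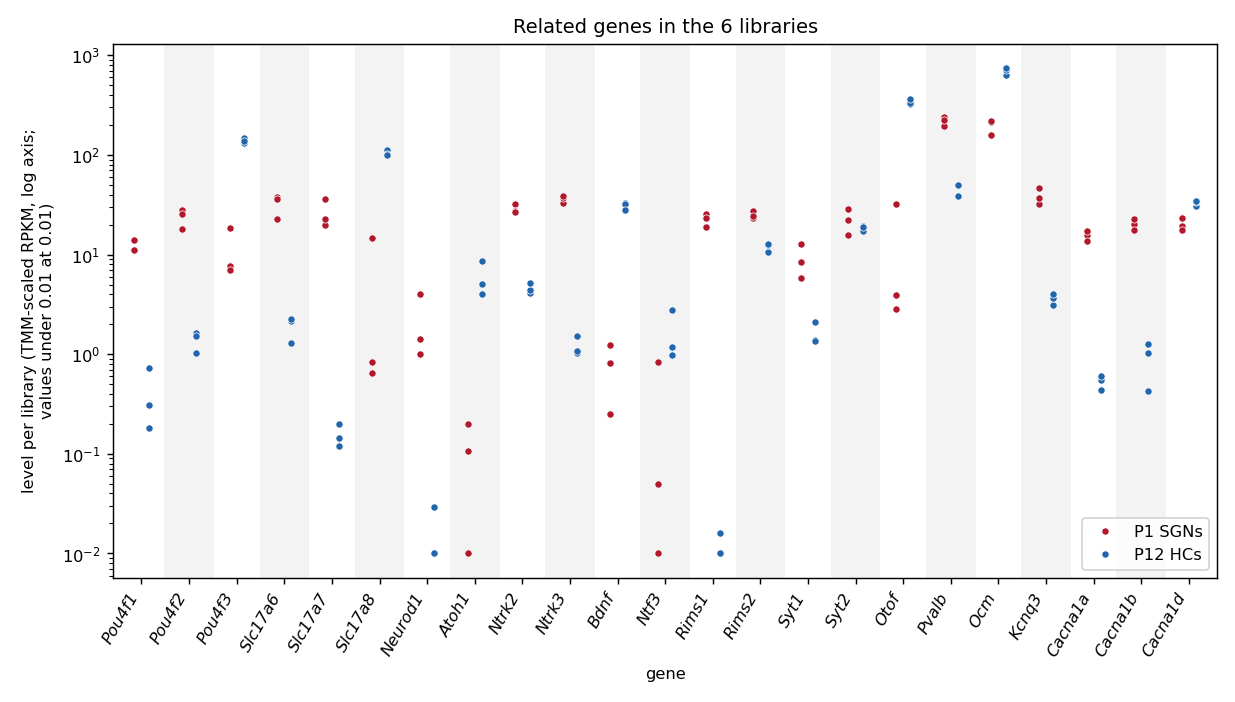
Levels of related genes in each of the 3 P1 SGN libraries (red) and 3 P12 HC libraries (blue), in TMM-scaled RPKM on a log axis, with values under 0.01 drawn at 0.01. *Pou4f1* and *Pou4f2* are higher in SGNs and *Pou4f3* in HCs, *Slc17a6* and *Slc17a7* are higher in SGNs and *Slc17a8* in HCs, and *Syt2* overlaps between the groups.

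Within families, one member often marked each cell. Among class IV POU factors, *Pou4f1* had 13.9, 11 and 11.2 in SGNs and 0.721, 0.183 and 0.309 in HCs, and *Pou4f2* had 28.3, 25.4 and 18.2 and 1.62, 1.51 and 1.03, where *Pou4f3* had the reverse order. Among vesicular glutamate transporters, *Slc17a6* was 16.8-fold and *Slc17a7* 162-fold higher in SGNs and *Slc17a8* 56.8-fold higher in HCs. Among proneural factors, *Neurod1* had counts of 386, 97 and 65 in SGNs and 0, 0 and 2 in HCs, at least 41.3-fold higher, and *Atoh1* had the reverse order. The neuronal RNA-binding genes *Elavl2*, *Elavl3* and *Elavl4* were all higher in SGNs, with *Elavl4* at 103, 85.3 and 88.9 against 0.548, 0.239 and 0.142. *Calb1* and *Calb2* were not called, and *Calb2* (calretinin) was at 102, 125 and 116 in SGNs and 40.5, 47.4 and 47.2 in HCs.

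Splicing regulators gave a mixed pattern, with 10 of 21 genes higher in SGNs (47.6%, against 10.8% of all genes). In HCs 2 were higher (9.52%, against 12.1%), and 1 was shared (4.76%, against 9.69%). *Srrm4* (chr5:116439275-116591817, minus strand), the regulator of neural microexons that HCs also need, was shared at 19.4, 23.3 and 18.01 in SGNs and 23.9, 25.0 and 20.04 in HCs, with a 95% interval of -0.56 to 0.20. It was at 1.14 ± 1.15 (SD, n = 3) in glia. *Rest*, the repressor of neuronal genes that SRRM4 is known to inactivate by splicing, was higher in HCs at 12.5, 12.2 and 15.2 against 4.43, 2.30 and 1.35. *Ptbp1*, a repressor of neuronal exons, was also higher in HCs, at 74.4, 78.0 and 92.1 against 22.9, 14.8 and 8.89. It overlaps *Plppr3* on the other strand, and the counting may not have used strand. *Rbfox1*, an activator of neuronal exons, was 15.1-fold higher in SGNs, and *Rbfox2* 2.22-fold higher without a call.

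**Figure D4:**
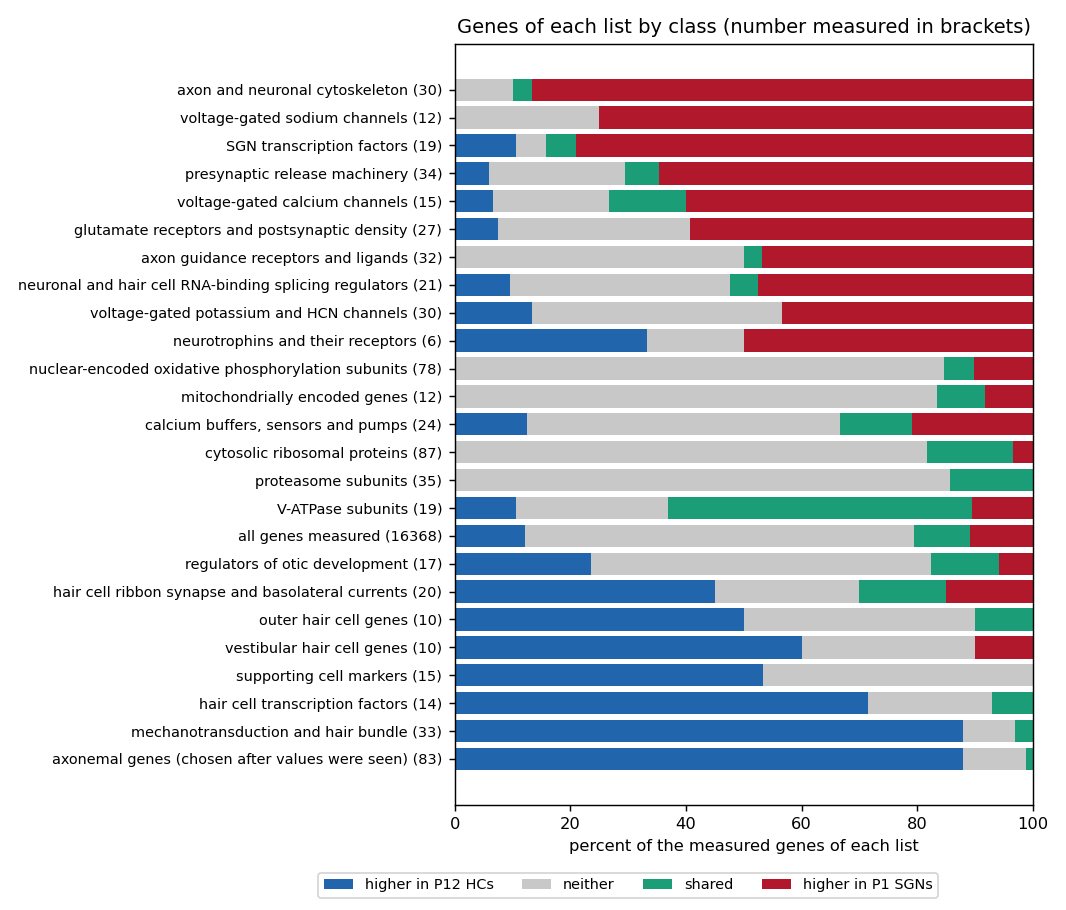
Percent of the measured genes of each list that were higher in P12 HCs (blue), higher in P1 SGNs (red), shared (green) or in neither class (grey), with the number measured in brackets. Hair bundle and axonemal genes, the latter chosen after their values were seen, lie at one end. Axonal cytoskeleton and sodium channel genes lie at the other, and V-ATPase subunits have the most green, 10 of 19.

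Of the lists, V-ATPase genes had the highest share of shared genes. The V-ATPase, the proton pump that fills vesicles and acidifies lysosomes, had 10 of 19 subunit genes shared (52.6%, against 9.69% of all genes), with a median log2 fold change of -0.01. Among genes with a CPM over 10 in all 6 libraries, the only ones that could be shared, the share was 24.0%. How many of the 19 passed that limit was not counted, so 52.6% and 24.0% have unlike bases. *Atp6v0a1* had 37.5, 58.1 and 53.5 in SGNs and 51.2, 51.5 and 48.6 in HCs, and *Atp6v1b2* had 33.1, 46.9 and 42.6 and 35.5, 35.7 and 32.9. Of the 19, 2 were higher in SGNs (10.5%, against 10.8% of all genes) and 2 in HCs (10.5%, against 12.1%). *Atp6v1g2*, the neuronal G subunit, had 80.9, 119 and 68.6 in SGNs and 2.17, 1.54 and 1.63 in HCs. Its relative *Atp6v1g1* had 27.5, 28.0 and 27.7 and 70.9, 82.8 and 71.8 without a call. *Atp6v0e2* was 5.10-fold higher in SGNs, a call lost under library-size scaling, and *Atp6v0e* 6.88-fold higher in HCs. The other gene called higher in HCs lost its call under 9 alternatives.

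Most genes of other large complexes were in neither class, where 67.4% of all genes measured also lay, and their medians were above 0. Only genes with a CPM over 10 in all 6 libraries could be shared, and 24.0% of those were. How many genes of the 3 complexes below passed that limit was not counted. Their shared portions are taken over all their genes measured, so they are not directly comparable with 24.0%. Of 35 proteasome genes, none was called and 5 were shared (14.3%, against 9.69% of all genes), with a median log2 fold change of 0.94. Of 87 cytosolic ribosomal protein genes, 3 were higher in SGNs (3.45%, against 10.8%) and 13 were shared (14.9%), with a median of 1.05. Of 78 nuclear genes of oxidative phosphorylation, 8 were higher in SGNs (10.3%, against 10.8%) and 4 were shared (5.13%, against 9.69%), with a median of 1.15. Of these 78 genes, 4 were called higher in SGNs under median-of-ratios scaling and 2 under library-size scaling. The most abundant shared genes outside the ribosome were *Calm2*, *Hsp90ab1*, *Sod1*, *Hspa8* and *Ubb*. *Calm2* (ENSMUSG00000036438.12, chr17:87433412-87446935, minus strand), one of the calmodulin genes, had 1058, 1679 and 1426 in SGNs and 2165, 2133 and 1748 in HCs, with a 95% interval of -0.90 to -0.26. The groups did not overlap, which shows that shared genes could still differ by less than 2-fold. The interval of *Calm2* ended close to the 2-fold limit, and the class depended on scaling. Median-of-ratios and library-size scaling shifted the median gene by -0.22 and -0.40 on the log2 scale. Only 788 of the 1586 shared genes stayed shared under all 3 scalings. The chaperone gene *Hsp90ab1* had 834, 709 and 675 and 567, 519 and 489. *Sod1*, the superoxide dismutase, had 484, 495 and 527 and 526, 457 and 370.1, with overlapping groups. *Calm3*, which encodes calmodulin too, was 4.25-fold higher in SGNs, and its call was lost with DESeq2, under library-size and median-of-ratios scaling and with a filter at a CPM of 10.

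Of the 1586 shared genes, 84 were over 4-fold above P8 glia in both cells at an adjusted p under 0.01. There were 50 without HC replicate 3 and 43 with DESeq2. Both comparisons use the same glial libraries, so the number is a description. *Kifap3* (chr1:163779583-163917109, plus strand), the adaptor of the kinesin-2 motor, was nearly equal at 51.7, 69.5 and 63.3 in SGNs and 68.2, 59.5 and 54.0 in HCs, with a 95% interval of -0.36 to 0.39, and at 12.8 ± 4.83 (SD, n = 3) in glia. *Scg5*, a chaperone of secretory granules, had 48.7, 53.5 and 69.3 and 48.9, 44.0 and 43.9. *Snap91*, a clathrin adaptor for vesicle retrieval, had 40.2, 53.0 and 52.1 in SGNs and 34.8, 35.3 and 35.1 in HCs and 4.39 ± 4.50 in glia. *Dner*, a transmembrane protein with EGF-like repeats, had 37.2, 49.6 and 63.7 and 35.1, 36.7 and 39.0. The list also held synaptic genes. *Rimbp2*, which links calcium channels to the release site, had 9.91, 12.7 and 12.04 in SGNs and 12.9, 12.5 and 15.54 in HCs, and 0.463 ± 0.509 in glia. *Syt2*, *Cacnb2*, *Srrm4* and the SK channel gene *Kcnn2* belonged to it as well. *Kcnn2* was low, at 2.49, 4.58 and 4.63 in SGNs and 2.56, 3.78 and 5.09 in HCs.

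Further members of the set, named after their values were seen, covered several kinds of gene. *Casz1*, a zinc-finger factor, had 23.1, 16.2 and 17.6 in SGNs and 13.6, 15.2 and 19.8 in HCs. *Ica1*, a protein of dense-core vesicle traffic, had 20.7, 22.8 and 21.9 and 18.2, 23.2 and 22.9. *Celsr3*, a planar polarity cadherin, had 14.2, 12.5 and 12.6 and 10.5, 11.9 and 12.4. The long noncoding RNA *Miat* had 17.7, 27.7 and 25.3 and 21.7, 31.5 and 30.6, and *Ryr2*, a calcium release channel, had 3.74, 3.28 and 4.89 and 3.52, 3.81 and 3.62. The SGN and HC libraries overlapped in each of these 5 genes except *Celsr3*. *Ckmt1* overlaps *Strc* on the other strand, and its 36.5, 33.9 and 39.8 in SGNs and 27.9, 28.7 and 35.5 in HCs may include reads of that gene.

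Means of SGNs at P14, given without a test, differed from the P1 means for some shared genes. *Eya1* had a mean of 16.1 ± 2.50 (SD, n = 3) in SGNs at P14, against 39.1 at P1 and 50.3 in P12 HCs. *Mreg* was at 11.6 ± 3.35 at P14 and 47.6 at P1. *Kifap3* was at 82.1 ± 8.43 and *Strbp* at 64.9 ± 9.92 at P14.

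**Figure D5:**
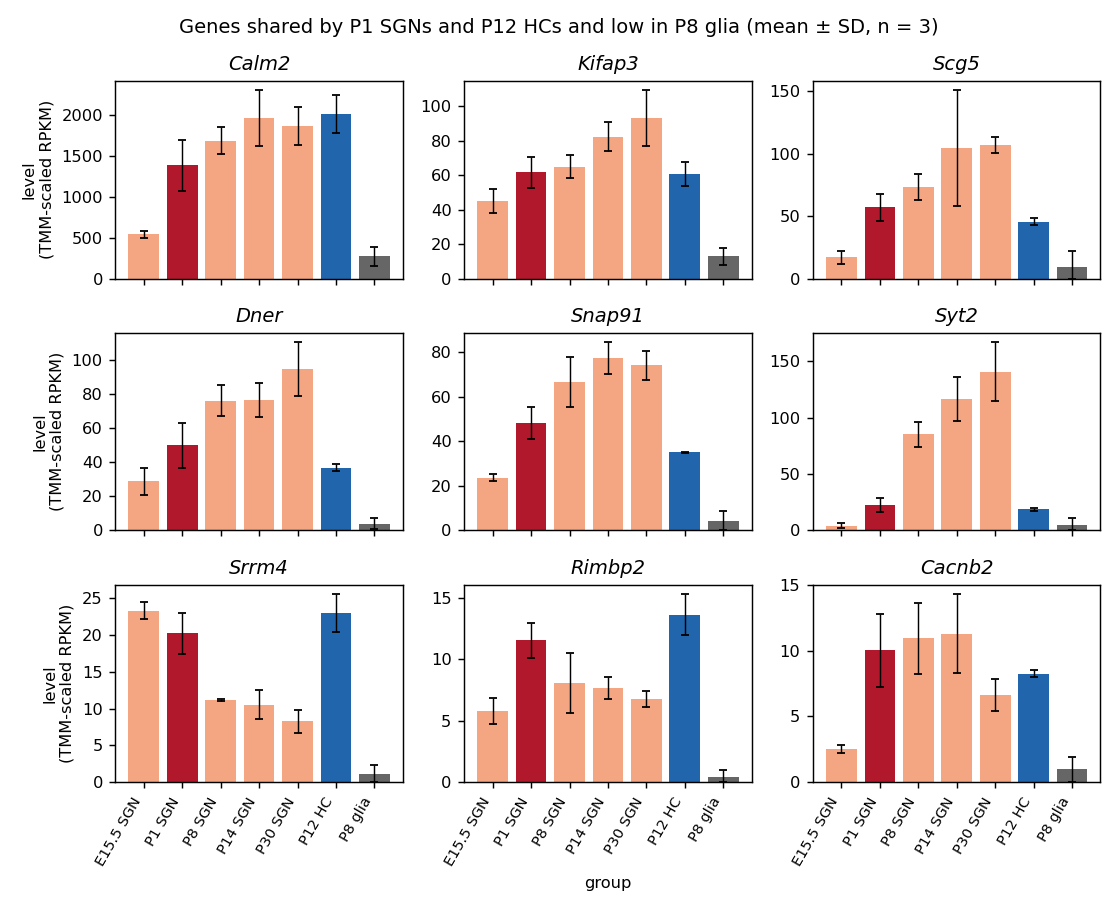
Mean levels (bars) with SD (whiskers, n = 3 libraries) of 9 genes in the 7 groups, in TMM-scaled RPKM. In all 9 genes the P1 SGN (red) and P12 HC (blue) bars are of like height, within the 2-fold interval of the shared class, and the P8 glia bar (grey) is low, and *Syt2* has a mean of 141 in P30 SGNs.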

How the data were processed

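RNA was isolated with PicoPure, amplified with the Ovation RNA-Seq V2 kit and sequenced in pairs. Reads were aligned by the authors to the mm10 build (STAR, version 2.4.0i in the submitters' processing notes). They counted reads per GENCODE vM15 gene with featureCounts and deposited unnormalized counts with a length per gene. Strand, multimapping and pair settings are not given in the sources used here. Of counts from 1 to 20, 64.3% to 67.2% were even in the 6 libraries, so that a fragment may count as a pair of reads.

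The counts of 21 libraries in 7 groups were normalized with TMM (edgeR 4.0.16) and fitted with voom, lmFit and eBayes of limma 3.58.1 (R 4.3.3). Each group had its own mean, with two-sided tests and Benjamini-Hochberg adjustment over the 17531 genes that passed a CPM of 1 in every replicate of some group. Tables and plots were made with Python 3.11.15, pandas 2.3.3, numpy 2.4.6 and matplotlib 3.10.9. Levels are TMM-scaled RPKM. They replace the TPM that had been planned, itself computed from the counts and lengths, because *Gm23935* alone took 18.8% to 41.2% of the TPM in P1 SGNs and 20.0% to 27.2% in HCs. Exclusive genes still used TPM, where the ratios lay a median of -0.88 (log2) from the fitted ones.

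The limit set by a count of 0 was taken as 3 counts, or 0.0899 to 0.137 CPM in P1 SGNs and 0.167 to 0.246 CPM in HCs. It covers counting error only, as amplified reads without molecular identifiers are not independent molecules. Folds against libraries all at or under that count are lower bounds. The comparison's median standard error was 0.59 on the log2 scale, and 0.33 for genes with CPM over 10 in all 6 libraries.

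Members and lists were chosen with earlier results of these data known. Named are the 8 widest called differences each way at CPM over 10, the 10 most abundant exclusive genes each way, the 10 most abundant shared genes and shared genes low in glia, and members of the lists and families; predicted genes were left out. Others are marked in the text. Results for some genes are not reported here. Symbols came from GENCODE M21 (52403 of 52550 genes matched), and promoters from RefSeq. Alternatives were other scalings, filters, thresholds and fits, DESeq2 1.42.0, edgeR's quasi-likelihood test, a replicate block and leaving out each library.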

Additional observations from a re-analysis of the deposited data

How the results depend on the processing

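With 3 libraries per group the median standard error was 0.59. In neither class were 67.4% of genes. The shared class could hold only the 6617 genes with a CPM over 10 in all 6 libraries, and 1539 genes had an adjusted p under 0.01 at less than 4-fold. A gene in neither class is not shown to be alike. Of 335 named genes that were called, 87 lost the call under at least 1 alternative and none changed direction. With the replicate number as a replicate block, 1783 genes were higher in SGNs, 1870 higher in HCs and 1571 shared, of which 1735, 1833 and 1511 were also found without the block. Libraries with the same number did not deviate together, with r of 0.02, 0.00 and 0.01 for numbers 1, 2 and 3, so the numbers were not used as pairs.

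The edgeR quasi-likelihood test called 1050 genes higher in HCs, 1048 of them among the 1984, and 1539 higher in SGNs, so that 59.4% of its calls were on the SGN side. It gives no interval and hence no shared count. DESeq2 called 1570 and 1703. At thresholds of 2-fold and 0.05, 3287 genes were higher in SGNs and 3404 in HCs. The shared count was 2500 in a fit of the 6 libraries alone, 2569 with quality weights and 4906 with a 4-fold interval. The count of shared genes low in glia was 43 with DESeq2. With CPM in place of TPM, exclusive genes were 322 for SGNs and 411 for HCs. Leaving out 1 library at a time gave 1455 to 1681 genes higher in SGNs, 1600 to 1755 higher in HCs, 1108 to 1263 shared, 50 to 67 shared and low in glia, 197 to 199 exclusive to SGNs and 508 to 548 exclusive to HCs. The lowest of the shared genes low in glia, 50, came without HC replicate 3. The cause of these changes was not tested.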
